A study of Homo sapiens with 18 samples.

Results

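The comparison described here is the difference between the cytarabine response of U2OS cells that overexpress wild-type DNMT3A (WT) and that of U2OS cells with the empty MigR1 vector (EV). It rests on 12 of the 18 libraries of the series, 3 in each of 4 groups, and on all 18226 genes with enough counts to be tested out of 25296. The 4 groups are untreated EV cells, EV cells sampled 24 h after 10 µM cytarabine, untreated WT cells and WT cells sampled at the same time and dose. For the cells without drug, the series text speaks of vehicle control. The other 6 libraries come from a line with mutant DNMT3A, named R882C in the series text and R882H in the sample labels. They enter the comparison only through the count filter, the scaling and the shared estimate of spread. The EV cells are the control for the vector, and all 4 groups share the U2OS background. Each genotype is 1 derived line, so a difference between lines cannot be told apart from a difference between the 2 cell populations that were made. The labels give biological triplicates and no batch.

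U2OS is a human osteosarcoma line that retains wild-type p53. MigR1 is a retroviral vector in which the viral long terminal repeat drives the insert. DNMT3A sets methyl groups on cytosines de novo. Cytarabine is a cytidine analogue that cells phosphorylate and build into DNA, where it stalls replication forks. Stalled forks activate checkpoint kinases and p53, and several kinds of stress activate the integrated stress response, in which phosphorylation of a translation factor favours synthesis of the transcription factor ATF4. ATF4 targets include enzymes of serine and one-carbon metabolism, amino acid transporters and aminoacyl-tRNA synthetases.

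The lines differed in DNMT3A as labelled. Levels are given as CPM, the count of a gene scaled to a common library size with TMM factors. DNMT3A was at 26.9, 27.5 and 26.2 CPM in untreated EV replicates 1 to 3, 47.1, 49.6 and 45.5 in treated EV, 131, 129 and 139 in untreated WT and 182, 166 and 181 in treated WT libraries. The WT libraries lay above the EV libraries at both times without overlap, and the counts do not separate the introduced from the endogenous gene. DNMT3A rose with cytarabine in EV (log2 fold change 0.82, adjusted p = 0.00198), the change in WT was 0.40 (adjusted p = 0.0724), and the difference between them was -0.41 (adjusted p = 0.654, edgeR).

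Library totals ran from 15391500 to 21850400 counts. The biological coefficient of variation was 0.0398 in untreated EV, 0.0398 in untreated WT and 0.0487 in treated WT libraries. It was 0.133 in treated EV libraries, in which replicate 1 stood farthest from the others (root mean square distance 0.552 on the log2 scale). The mutant libraries, which enter the shared estimate of spread, had 0.216 untreated, the highest of all groups, and 0.0696 treated. The mitochondrial share of counts was 3.79%, 5.18% and 3.87% in treated EV replicates 1 to 3, above all 9 other EV and WT libraries (2.93% to 3.60%). Replicate 2 also had the lowest total and the highest share of counts in its top 20 genes among the 12, 7.85%. The part of these values in the results was not tested. Of the osteoblast lineage markers, RUNX2 averaged 45.8 CPM, SPARC 993 CPM and COL1A1 137 CPM over the 12 libraries, while DLX5 averaged 0.0662 CPM and BGLAP 0.191 CPM. The 7 blood cell markers in the table summed to at most 8.41 CPM in any of the 12 libraries. Neuronal markers summed to between 179 and 183 CPM in untreated and between 171 and 190 CPM in treated EV libraries. In WT libraries they summed to between 161 and 168 CPM untreated and between 174 and 183 CPM treated. Of these markers, TUBB3 averaged 107 CPM and NEFL 51.0 CPM over the 12 libraries. Epithelial markers summed to between 16.5 and 19.5 CPM in untreated and 29.7 and 32.1 CPM in treated EV libraries, and to between 13.4 and 15.01 CPM in untreated and 15.9 and 23.4 CPM in treated WT libraries, and their part in the results was not tested. In bulk RNA, a change in the share of cells in a state and a change in RNA per cell cannot be told apart.

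For each gene, the log2 fold change of cytarabine against untreated in EV was subtracted from that in WT. A positive difference therefore means a larger rise or a smaller fall in WT. With edgeR's quasi-likelihood test and Benjamini-Hochberg adjustment over all 18226 genes, 52 genes had a different response at an adjusted p under 0.05, 26 with a positive and 26 with a negative difference. That is 0.285% of the genes tested, 0.143% in each direction. Without adjustment 1815 genes had p under 0.05. In every one of the 52 genes the 3 responses of the treated WT replicates did not overlap the 3 of the treated EV replicates, each taken against the mean of its untreated group, which also held for 31.3% of all tested genes. Fitting only the 12 EV and WT libraries, without the mutant line, called 278 of 17624 genes (1.58%), 165 with a positive (0.936%) and 113 with a negative difference (0.641%), and these included all 52.

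These 52 stand against a response that the lines largely shared. Cytarabine changed 8940 genes in EV (49.1%) and 8932 in WT (49%), of which 7088 were changed in both. The direction was the same for 7079 of these, 3759 higher and 3320 lower, and opposite for 9. Among the genes that rose in both lines the fitted rise was larger in WT for 55.1%, and among those that fell in both the fitted fall was larger in WT for 43.0%. The median difference over all tested genes was 0.0099 on the log2 scale, and 51.8% of genes had a positive sign. Other scaling factors shifted the difference by a median of -0.030 (upper quartile), 0.012 (RLE) and 0.013 (the authors' factors). The shares in this paragraph come from TMM scaling only.

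**Figure D1:**
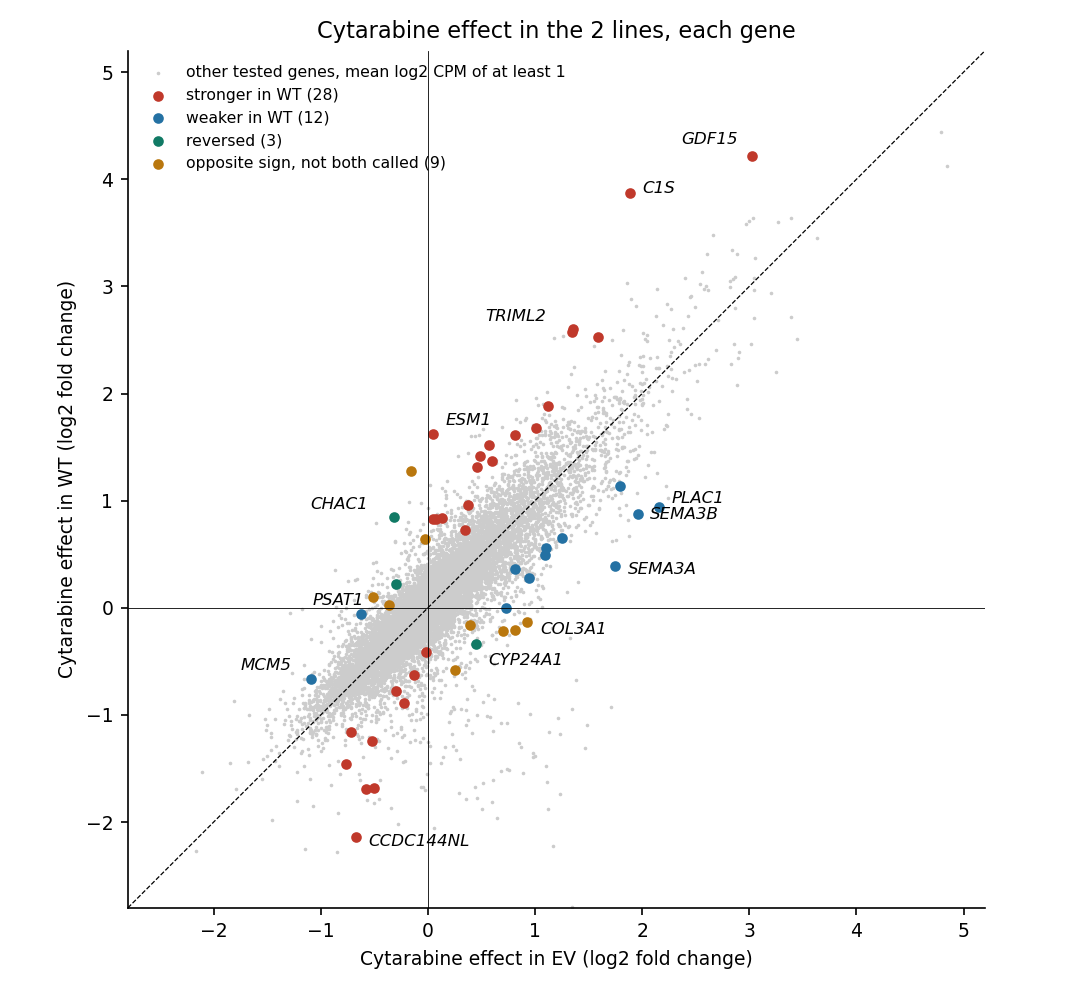
Cytarabine effect in EV (horizontal axis, log2 fold change) against that in WT (vertical axis, log2 fold change) for each tested gene with a mean of at least 1 on the log2 CPM scale, with the 52 genes whose effect differed coloured by class and the dashed line marking equal effects. C1S and GDF15 lie far above the line and SEMA3A, SEMA3B and PLAC1 below it, and the scatter of grey points at the lower right holds 101 uncalled genes with a fitted rise in EV and a fitted fall of more than 0.5 in WT, 70 of them pseudogenes.

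The plot of both effects also holds 101 uncalled genes with a fitted rise in EV and a fitted fall of more than 0.5 on the log2 scale in WT, a set picked out after the values were seen. Pseudogenes make up 70 of them. Without treated EV replicate 1, 25 of the 101 and 7 of the 70 pseudogenes still had a fitted rise in EV and a fall of that size in WT. Some loss is built in, as the set was picked by a fitted rise that uses this library. Leaving out another treated EV library was not tried for this set. The median difference of all 1538 tested pseudogenes was -0.29, and -0.087 without treated EV replicate 1, against 0.024 and 0.0062 for protein-coding genes. Of the 52 called genes 47 are protein-coding, and 1, AC097374.1, is a pseudogene. Of all 18226 tested genes, 14309 are protein-coding and 1538 are pseudogenes.

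Sorted by the size of the 2 effects, 28 of the 52 responses were stronger in WT, 18 of them rises and 10 falls. Another 12 were weaker in WT, 10 rises and 2 falls. In 3 genes, CHAC1, PSAT1 and CYP24A1, the response passed the threshold in both lines with opposite signs, and in 9 more the fitted signs were opposite but only 1 line passed. Of all 52, 35 responses were called in both lines, 9 only in WT and 8 only in EV.

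CHAC1 and PSAT1, both targets of ATF4, fell in EV and rose in WT. CHAC1 encodes a cyclotransferase that degrades glutathione, and PSAT1 an aminotransferase of serine synthesis. RefSeq's promoter table (GRCh38.p14) held the 250 bases before the start of both, shown because these are 2 of the 3 genes with a reversed response and because ATF4 acts through a composite element with the letters TGATGNAA. Capitals mark a match to those letters on either strand.

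CHAC1: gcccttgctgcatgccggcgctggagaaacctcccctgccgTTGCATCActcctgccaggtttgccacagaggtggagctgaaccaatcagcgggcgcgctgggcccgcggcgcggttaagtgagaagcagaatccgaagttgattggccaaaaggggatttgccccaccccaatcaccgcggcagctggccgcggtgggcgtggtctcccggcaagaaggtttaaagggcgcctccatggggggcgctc
PSAT1: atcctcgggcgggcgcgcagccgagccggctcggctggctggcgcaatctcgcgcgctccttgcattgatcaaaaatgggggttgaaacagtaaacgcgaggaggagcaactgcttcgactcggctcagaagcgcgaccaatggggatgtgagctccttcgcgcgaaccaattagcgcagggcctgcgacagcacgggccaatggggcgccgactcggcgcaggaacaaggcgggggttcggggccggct

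The CHAC1 window is chr15:40953221-40953470 on the plus strand and holds 1 match, on the reverse strand, whose first base lies 209 bases before the start. The PSAT1 window, chr9:78296875-78297124 on the plus strand, holds no match, and neither does that of GDF15 (chr19:18385908-18386157). The letters occur in 186 of the 11749 promoters of tested genes in the table (1.58%). Promoter sequence was matched for 32 of the 52 called genes (61.5%), too few for a count over the set. RefSeq's CHAC1 start lies inside the span that the gene has in the annotation used for coordinates below.

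CHAC1 (chromosome 15, 40952962 to 40956520, plus strand, hg38) was at 17.2, 14.6 and 18.6 CPM in the untreated EV replicates 1 to 3 and at 13.5, 14.2 and 12.7 in the treated ones. In WT it was at 14.1, 14.7 and 12.9 CPM untreated and 23.3, 27.7 and 24.2 treated. The treated WT libraries were the highest of the 12 and overlapped no other group, and untreated WT overlapped both EV groups. The change was -0.32 ± 0.13 (SE) in EV, adjusted p = 0.042, and 0.85 ± 0.12 in WT, adjusted p = 1.26e-05, and the difference was 1.17 ± 0.18 (adjusted p = 0.00538, edgeR).

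PSAT1 (chromosome 9, 78297143 to 78330094, plus strand) stood at 106, 102 and 96.7 CPM in untreated and 75.9, 85.7 and 86.4 CPM in treated EV libraries. The WT values were 82.97, 84.2 and 86.8 CPM untreated and 100.02, 101 and 95.1 CPM treated. The lines thus changed places: treated WT libraries overlapped untreated EV, and untreated WT overlapped treated EV. Its effects were small, -0.30 ± 0.064 in EV and 0.22 ± 0.063 in WT, with a difference of 0.52 ± 0.090 (adjusted p = 0.0166, edgeR).

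CYP24A1, the mitochondrial enzyme that inactivates vitamin D, was reversed the other way. In EV it was at 96.9, 95.7 and 89.3 CPM untreated and 139, 115 and 130.4 CPM treated, and in WT at 103, 109 and 103 CPM untreated and 85.1, 75.5 and 87.95 CPM treated. All treated WT libraries were below, and all treated EV libraries above, every untreated library. The effect was 0.45 ± 0.085 in EV and -0.34 ± 0.085 in WT, a difference of -0.79 ± 0.12 (adjusted p = 0.00538, edgeR).

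Another 6 genes were changed in both lines with opposite signs without a called difference: PCDH18, RPL21P75, PLEK2, AC125611.3, FGF2 and WARS. WARS, a tryptophanyl-tRNA synthetase, fell by 0.18 in EV and rose by 0.19 in WT, with a difference of 0.38 (adjusted p = 0.186, edgeR). For FGF2, a fibroblast growth factor, the effects were 0.23 and -0.22 and the difference -0.45 (adjusted p = 0.137). PCDH18, a protocadherin, was low throughout, at 0.584, 0.935 and 0.984 CPM in untreated and 1.66, 1.62 and 2.44 CPM in treated EV, and 1.52, 1.85 and 1.87 CPM in untreated and 1.02, 0.54 and 1.02 CPM in treated WT libraries. Its difference of -2.21 had an adjusted p of 0.0929.

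**Figure D2:**
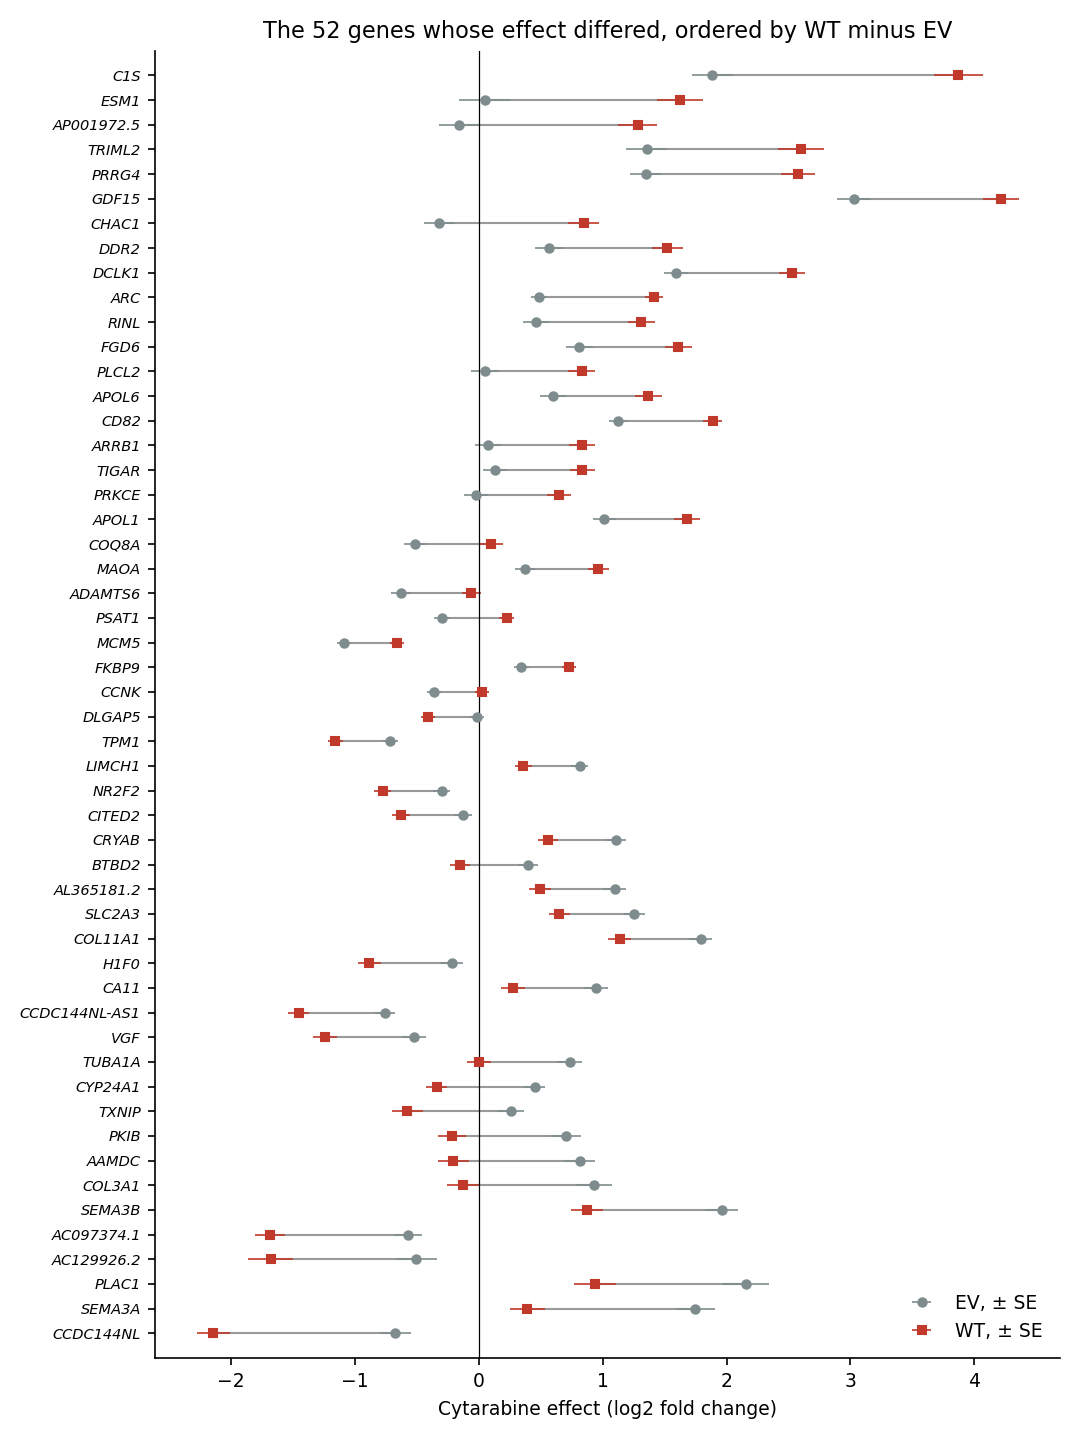
Cytarabine effect (log2 fold change ± SE, 3 against 3 libraries) in EV (grey circles) and WT (red squares) for the 52 genes whose effect differed, ordered by WT minus EV. The difference runs from 1.99 for C1S to -1.47 for CCDC144NL, and for CHAC1, PSAT1 and CYP24A1 the 2 effects lie on opposite sides of 0.

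The rises that were stronger in WT were led by C1S, the serine protease of the first complement component (chromosome 12, 6988259 to 7071033, plus strand). C1S was at 3.62, 4.97 and 5.103 CPM in untreated and 19.6, 13.4 and 17.5 CPM in treated EV libraries, and at 0.883, 1.38 and 1.21 CPM in untreated and 15.3, 19.7 and 15.9 CPM in treated WT libraries. Untreated WT libraries lay below untreated EV without overlap, whereas the treated groups overlapped. Cytarabine raised C1S 3.695-fold in EV and 14.6-fold in WT, a difference of 1.99 ± 0.27 on the log2 scale (adjusted p = 0.00283, edgeR). C1R, whose product acts with C1S, had a difference of 0.26 (adjusted p = 0.85). No other gene among the 21 tested complement genes had a called difference, and their median difference was -0.21. The C1S gene shares its span with EMG1 on the same strand, whose difference was 0.24 (adjusted p = 0.32).

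ESM1, a proteoglycan best known from endothelium (chromosome 5, 54977864 to 55022672, minus strand), was at 6.43, 8.53 and 6.76 CPM in untreated EV libraries and 6.21, 8.74 and 7.61 CPM in treated ones. It was at 14.1, 13.97 and 11.4 CPM in untreated and 34.4, 46.4 and 41.3 CPM in treated WT libraries. The EV groups overlapped each other, every WT library was above them, and the treated WT libraries were the highest. The effect was 0.048 ± 0.21 in EV (adjusted p = 0.872) and 1.63 ± 0.19 in WT, and the difference 1.58 ± 0.28 (adjusted p = 0.0191, edgeR). Endothelial markers summed to between 14.7 and 15.6 CPM in untreated and between 14.96 and 16.98 CPM in treated EV libraries. In WT libraries they summed to between 11.9 and 13.1 CPM untreated and between 16.2 and 19.99 CPM treated. All 6 tested endothelial markers had a positive difference, against 51.8% of all tested genes, with a median of 0.45 and 0 called. Their part in the results was not tested.

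GDF15, a stress-induced cytokine of the TGF-beta family (chromosome 19, 18374731 to 18389177, plus strand), rose most in both lines among the 52. The EV libraries held 33.9, 32.7 and 36.2 CPM untreated and 301, 248 and 289 CPM treated, the WT libraries 23.1, 26.9 and 23.8 CPM untreated and 459, 418 and 494 CPM treated. WT was lower than EV before treatment and higher after it, with no overlap at either time. The rise was 8.16-fold in EV and 18.6-fold in WT, and the difference 1.19 ± 0.18 (adjusted p = 0.00538, edgeR).

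Further rises were stronger in WT from a lower untreated level. PRRG4, a membrane protein with a gamma-carboxyglutamic acid domain, rose 2.54-fold in EV and 5.96-fold in WT, and DCLK1, a doublecortin-like kinase, 3.01-fold and 5.76-fold. ARC, a cytoskeleton-associated protein induced by activity in neurons, rose 1.398-fold from 62.8, 63.6 and 65.6 CPM in EV and 2.67-fold from 18.5, 17.6 and 20.4 CPM in WT. It had the smallest adjusted p of the 52 (difference 0.93 ± 0.10, adjusted p = 0.000142, edgeR). DDR2, a receptor tyrosine kinase for collagen, rose 1.48-fold and 2.87-fold, and MAOA, monoamine oxidase A, 1.298-fold and 1.95-fold. ARC, DDR2 and MAOA remained lower in WT after treatment.

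TRIML2 (2.56-fold in EV and 6.07-fold in WT), RINL (1.38 and 2.48), FGD6 (1.75 and 3.06), CD82, a tetraspanin (2.18 and 3.698), and FKBP9, a prolyl isomerase of the endoplasmic reticulum (1.27 and 1.66), also rose in both lines. So did the apolipoprotein L genes APOL1 (2.02-fold and 3.204-fold) and APOL6 (1.51 and 2.58). Besides ESM1, 3 of the 18 stronger rises were called in WT alone. These were PLCL2, an inactive phospholipase C homologue (1.03-fold in EV and 1.78-fold in WT), ARRB1, beta-arrestin 1 (1.05 and 1.78), and TIGAR (1.09 and 1.78). The differences of these 10 genes ran from 0.39 for FKBP9 to 1.25 for TRIML2. APOL1, APOL6 and MCM5 lie within 828 kb of one another on chromosome 22, and AP001972.5 lies 1.72 kb from ARRB1 on chromosome 11. C1S and SLC2A3, with differences of opposite sign (1.99 and -0.60), lie 848 kb apart on chromosome 12. How often other tested genes lie as close was not counted. AP001972.5, a transcript of unclassified type, was at 4.91, 5.43 and 4.55 CPM in untreated and 4.401, 4.81 and 4.15 CPM in treated EV libraries, and at 3.29, 2.59 and 3.35 CPM in untreated and 7.38, 8.54 and 6.58 CPM in treated WT libraries.

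The 10 falls that were stronger in WT were led by CCDC144NL (chromosome 17, 20836447 to 20896141, minus strand). CCDC144NL was at 32.9, 33.9 and 33.8 CPM in untreated EV, 21.7, 21.2 and 20.2 CPM in treated EV, 34.9, 34.4 and 32.7 CPM in untreated WT and 7.84, 6.86 and 8.32 CPM in treated WT libraries. The untreated groups overlapped, and after treatment every WT library was below every EV library. The difference was -1.47 ± 0.19 (adjusted p = 0.00174, edgeR). CCDC144NL-AS1, on the opposite strand of the same locus, had effects of -0.76 and -1.46 and a difference of -0.70 (adjusted p = 0.0165). As the counting of strand is not given in the sources used here, reads of the 2 genes cannot be told apart.

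VGF, a neuropeptide precursor, fell from 135, 138 and 130.3 CPM to 104, 80.1 and 95.8 CPM in EV, and from 280.3, 316 and 303 CPM to 121, 121 and 137 CPM in WT. It was the only one of the 10 to stay higher in WT at both times. TPM1, a tropomyosin of actin filaments, fell by 0.72 in EV and by 1.16 in WT from a higher untreated level, so that the treated groups overlapped. H1F0, the replacement linker histone, fell by 0.22 and 0.88, the orphan nuclear receptor NR2F2 by 0.30 and 0.78, and CITED2, a CBP/p300-binding coregulator, fell by 0.63 in WT with -0.13 in EV (adjusted p = 0.17). AC097374.1 fell by 0.57 and 1.69 and AC129926.2 by 0.51 and 1.68. DLGAP5, a spindle protein, is described with the mitotic genes. TPM1, NR2F2 and CITED2 also overlap antisense genes.

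The 10 rises that were weaker in WT included 2 secreted class 3 semaphorins, ligands of neuropilin and plexin receptors. SEMA3A (chromosome 7, 83955777 to 84492725, minus strand) was at 6.601, 6.43 and 7.07 CPM in untreated and 18.97, 27.5 and 21.3 CPM in treated EV, and at 16.8, 14.7 and 18.6 CPM in untreated and 22.4, 18.7 and 24.5 CPM in treated WT libraries. WT started above EV without overlap and the treated groups overlapped. SEMA3B (chromosome 3, 50267558 to 50277547, plus strand) was at 6.02, 6.08 and 5.595 CPM in untreated and 26.6, 19.1 and 22.96 CPM in treated EV, and at 6.28, 5.503 and 5.94 CPM in untreated and 10.4, 11.1 and 11.02 CPM in treated WT libraries. Here the untreated groups overlapped and every treated WT library lay below every treated EV library. The rises were 3.36-fold in EV and 1.31-fold in WT for SEMA3A (difference -1.36 ± 0.21, adjusted p = 0.00538, edgeR) and 3.89-fold and 1.83-fold for SEMA3B (difference -1.09 ± 0.19, adjusted p = 0.0165).

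Across the 29 tested semaphorins, plexins and neuropilins, 20 rose and 0 fell in EV and 21 rose and 1 fell in WT. Of all tested genes, 26.1% rose and 22.9% fell in EV and 26.3% rose and 22.7% fell in WT. The 2 class 3 genes were the only called differences, and the median difference was -0.078, with 34.5% of signs positive. The plexin PLXNA2 lay at the positive end with effects of 0.37 in EV and 1.00 in WT (difference 0.63, adjusted p = 0.372, edgeR), and SEMA3F rose by 1.77 and 1.95 (difference 0.19, adjusted p = 0.818). The fit of 12 libraries added SEMA6B, a membrane semaphorin, at -0.58 (adjusted p = 0.00594).

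Matrix genes differed in both directions. Of 43 tested collagen and matrix protease genes, 30 rose and 4 fell in EV and 31 rose and 3 fell in WT, beside 26.1% and 26.3% of all tested genes that rose and 22.9% and 22.7% that fell. The difference was called for DDR2 and ADAMTS6 upward and for COL3A1 and COL11A1 downward. COL3A1, the chain of type III collagen (chromosome 2, 188974320 to 189012747, plus strand), was at 7.13, 5.32 and 7.26 CPM in untreated and 14.2, 9.74 and 13.3 CPM in treated EV, and at 23.4, 27.3 and 22.1 CPM in untreated and 22.03, 23.5 and 20.99 CPM in treated WT libraries. Every WT library lay above every EV library, and the WT groups overlapped each other. COL3A1 rose by 0.93 in EV, changed by -0.13 in WT (adjusted p = 0.416) and had a difference of -1.06 ± 0.19 (adjusted p = 0.0232, edgeR). COL11A1, a fibrillar collagen of cartilage, rose 3.46-fold and 2.199-fold from overlapping untreated levels. ADAMTS6, a secreted metalloprotease, fell by 0.63 in EV from 251, 248 and 253 CPM to 146, 173 and 167 CPM, and was at 279, 255 and 271 CPM in untreated and 251, 282 and 239.9 CPM in treated WT libraries, which overlapped.

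The remaining genes of this class were PLAC1, a placental gene that rose 4.45-fold in EV and 1.92-fold in WT, SLC2A3, the glucose transporter GLUT3 (2.39 and 1.57), CRYAB, a small heat shock protein (2.15 and 1.47), the noncoding AL365181.2 (2.14 and 1.41), CA11, a carbonic anhydrase homologue (1.92 and 1.21), LIMCH1 (1.76 and 1.28) and TUBA1A, an alpha-tubulin (1.66 and 1.001). TUBA1A alone did not pass in WT (adjusted p = 0.992, edgeR). It overlaps TUBA1C, a near-identical gene, so its count is uncertain. SLC2A3 was at 70.7, 71.9 and 70.6 CPM in treated EV and 46.5, 38.1 and 40.1 CPM in treated WT libraries, without overlap, from overlapping untreated levels.

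Of the 9 genes with opposite fitted signs and 1 called effect, 5 had a negative difference. TXNIP, an inhibitor of thioredoxin, fell by 0.58 in WT and had 0.26 in EV (adjusted p = 0.0626), and was lower in WT at both times. PKIB, an inhibitor of protein kinase A, rose by 0.70 in EV with -0.21 in WT, AAMDC by 0.81 with -0.21 and BTBD2 by 0.39 with -0.16. COL3A1 is the fifth. The other 4, with a positive difference, were AP001972.5, PRKCE, COQ8A and CCNK. PRKCE, protein kinase C epsilon, rose by 0.65 in WT with -0.022 in EV, COQ8A, a protein of coenzyme Q synthesis, fell by 0.52 in EV with 0.10 in WT, and CCNK, the cyclin partner of CDK12, fell by 0.36 with 0.024.

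**Figure D3:**
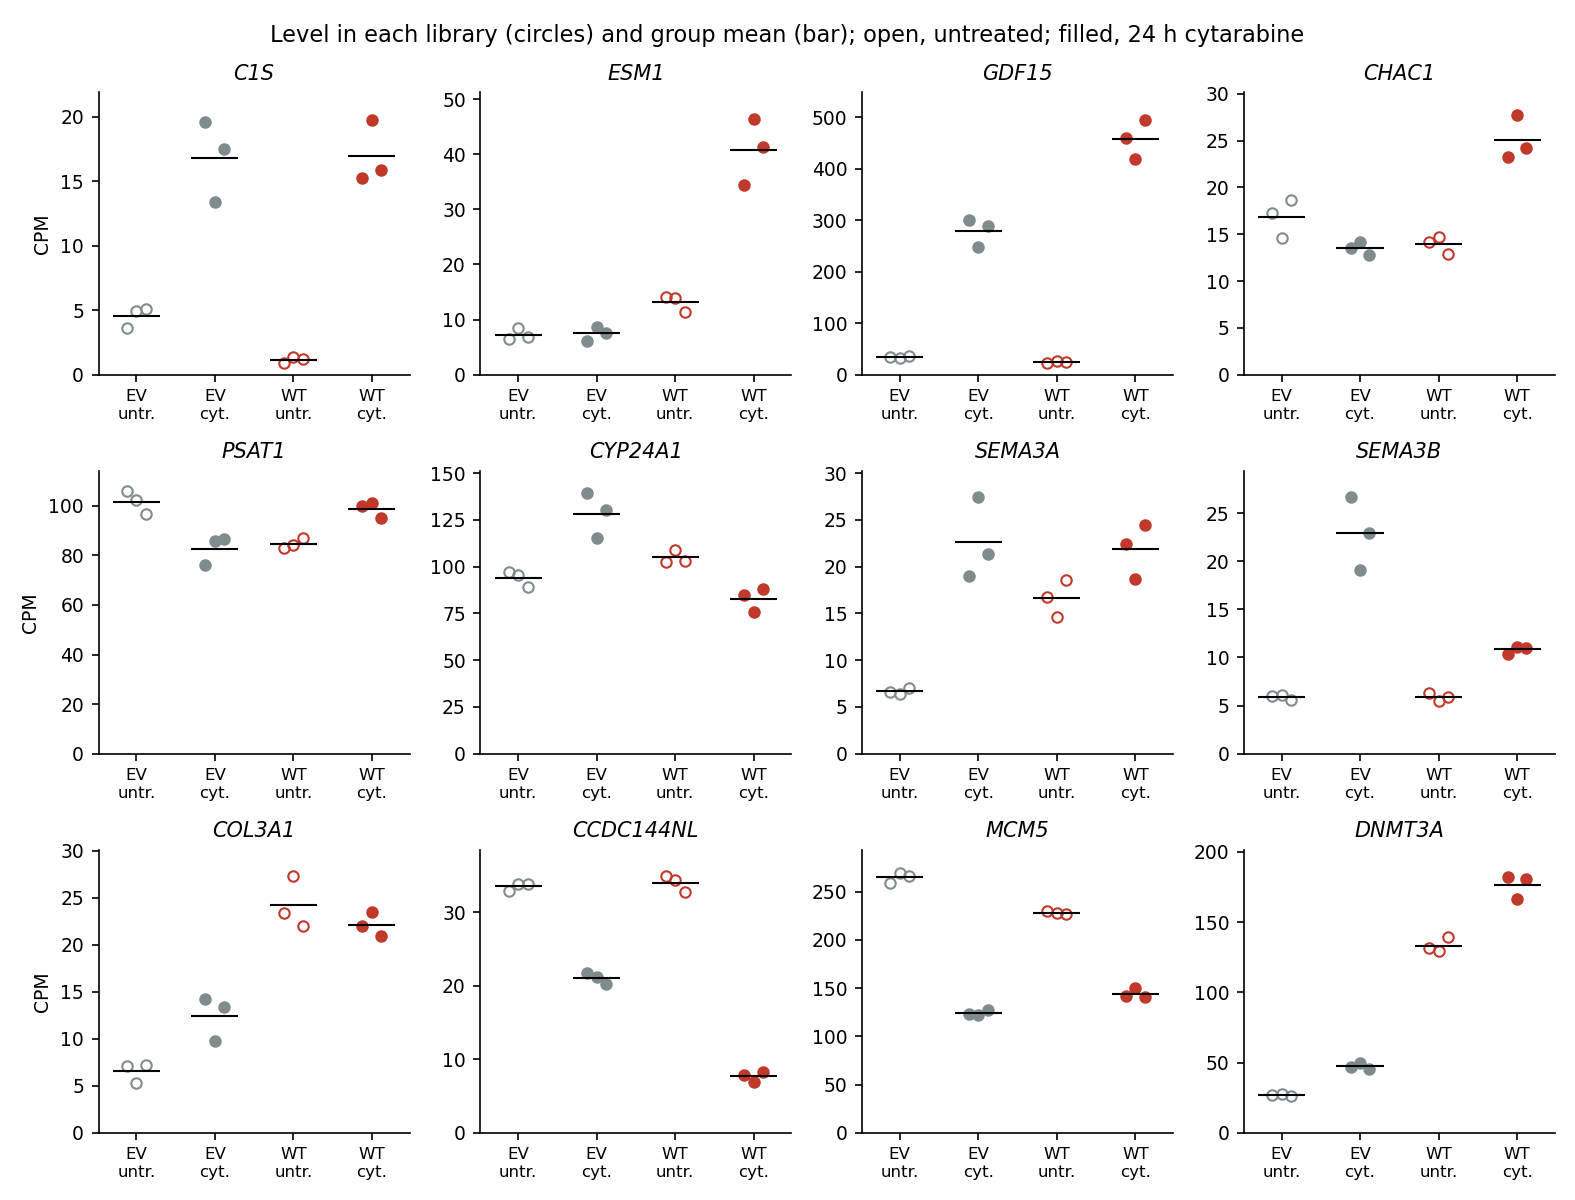
Level (CPM, vertical axes starting at 0) of 12 genes in each of the 12 EV and WT libraries, with circles for libraries (open untreated, filled 24 h cytarabine, grey EV, red WT) and bars for group means. The lines meet after treatment for C1S and SEMA3A, part after treatment for CHAC1, SEMA3B and CCDC144NL, and are apart at both times for ESM1, COL3A1 and DNMT3A.

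The lines were also compared at each time. Of the 52 genes, 34 differed between untreated WT and EV (11.7% of all tested genes did), 23 lower and 11 higher in WT. After cytarabine 37 differed (16.5% of all tested genes), 22 lower and 15 higher in WT. These comparisons use the same libraries as the difference between effects and are another view of it rather than separate support. In 15 genes the lines differed only untreated, 8 with a positive difference (C1S, PRRG4, DCLK1, RINL, APOL6, TIGAR, COQ8A, CCNK) and 7 with a negative one (TPM1, CRYAB, AL365181.2, CA11, PKIB, PLAC1, SEMA3A). In 18 genes they differed only after treatment, 5 positive (CHAC1, FGD6, PLCL2, ADAMTS6, FKBP9) and 13 negative (CCDC144NL, SEMA3B, COL11A1, SLC2A3, CYP24A1, TUBA1A, DLGAP5, NR2F2, CITED2, LIMCH1, BTBD2, AC097374.1, AC129926.2). Of the 19 that differed at both times, 8 switched sides. GDF15, CD82, ARRB1, PRKCE, PSAT1, MCM5 and AP001972.5 went from lower to higher in WT, and AAMDC from higher to lower.

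Of 33 tested integrated stress response genes, 8 rose and 15 fell in EV, where 26.1% of all tested genes rose and 22.9% fell. In WT 16 rose and 6 fell, where 26.3% of all tested genes rose and 22.7% fell. The share of rises in EV was near that of all genes, and the counts of the 2 lines were not tested against each other. The median effect of the list was -0.11 in EV and 0.21 in WT, with the same signs under each of the 3 other scalings. Under upper-quartile scaling the EV counts were 10 higher and 10 lower. The difference was called for 3 members, GDF15, CHAC1 and PSAT1, all positive, and 93.9% of the members had a positive sign, with a median of 0.28 against 0.0099 over all genes. GDF15 is also induced by p53. The fit of 12 libraries called 8 members, all positive, adding PSPH, SHMT2, MTHFD2, GARS and WARS.

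By role, the serine and one-carbon enzymes PSAT1, PSPH, SHMT2 and MTHFD2 had differences of 0.52, 0.52, 0.36 and 0.34. SHMT2 and MTHFD2, the mitochondrial folate enzymes, fell in EV by 0.39 and 0.36, with -0.032 (adjusted p = 0.706) and -0.020 (adjusted p = 0.846) in WT. PSPH, which completes serine synthesis, had -0.084 in EV (adjusted p = 0.524) and rose by 0.44 in WT. The adjusted p of the difference was 0.176 for PSPH, 0.13 for SHMT2 and 0.27 for MTHFD2 with all 18 libraries, and 0.0194, 0.0137 and 0.0184 with 12 (edgeR). The glycyl-tRNA synthetase GARS fell by 0.36 in EV with -0.011 in WT (adjusted p = 0.929).

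None of the transcription factors of this response had a called difference. ATF4 fell by 0.48 in EV and 0.28 in WT (difference 0.20, adjusted p = 0.634, edgeR), and its partner CEBPB had the lowest difference of the list, -0.14 (adjusted p = 0.875). DDIT3, the proapoptotic factor CHOP, had 0.51 ± 0.52 (adjusted p = 0.817). TRIB3, a pseudokinase induced by ATF4, fell by 0.33 in EV with 0.11 in WT (difference 0.43, adjusted p = 0.451), and ASNS, asparagine synthetase, rose by 0.33 in WT with 0.086 in EV (adjusted p of the difference 0.5). STC2, a secreted stanniocalcin, and CBS, of the transsulfuration pathway, had larger differences, 0.90 ± 0.33 and 0.79 ± 0.34, with adjusted p values of 0.368 and 0.459. Among all 18226 tested genes, 1342 were lower and 783 higher in WT untreated, and 1351 were higher and 1662 lower after cytarabine. Of the list, 6 members were lower and 0 higher in WT untreated, and after cytarabine 11 were higher and 3 lower. The share of lower members after cytarabine was near that of all genes.

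The mean log2 CPM over the 33 genes shows both steps. It was 6.14, 6.15 and 6.16 in untreated EV replicates 1 to 3 and 6.09, 6.11 and 6.17 in treated ones. In WT it was 5.992, 6.001 and 5.946 untreated and 6.28, 6.33 and 6.30 treated. The EV groups overlapped, untreated WT was the lowest group and treated WT the highest. Their summed level, which abundant members dominate, fell from between 4848 and 4923 CPM to between 3870 and 4028 CPM in EV, and was between 4493 and 4543 CPM untreated and between 4428 and 4577 CPM treated in WT.

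Among 37 tested p53 targets, 23 rose and 1 fell in EV and 28 rose and 2 fell in WT. Rises were found for 26.1% of all tested genes in EV and 26.3% in WT, and falls for 22.9% and 22.7%. The median effect was 0.39 in EV and 0.50 in WT, and 89.2% of members had a positive difference, with a median of 0.21. Within this list only TIGAR, a phosphatase that lowers glycolytic flux, passed the threshold for the difference. TIGAR shares its span with the protein-coding AC008012.1 on the same strand, whose difference was -0.37 (adjusted p = 0.807, edgeR). How reads were divided between the 2 genes is not given in the sources used here. GDF15, which p53 also induces, was placed in the integrated stress response list and not in this one. TIGAR was at 79.6, 67.6 and 81.4 CPM in untreated and 79.7, 80.4 and 89.5 CPM in treated EV, and at 51.9, 50.7 and 52.03 CPM in untreated and 98.02, 89.5 and 88.5 CPM in treated WT libraries, so the lines were apart untreated and close after treatment (difference 0.71 ± 0.14, adjusted p = 0.0375, edgeR). CDKN1A, the cell cycle inhibitor p21, rose by 1.14 and 1.34 (difference 0.20, adjusted p = 0.434), and MDM2, the p53 ubiquitin ligase, by 0.43 and 0.81 (difference 0.38, adjusted p = 0.444). At the low end was GADD45B, at -0.40 (adjusted p = 0.673). With 12 libraries the difference was also called for FAS, a death receptor (0.46), SERTAD1 (0.44), TRIM22 (0.51) and SUSD6 (0.50).

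Of 51 tested replication and E2F targets, 4 rose and 20 fell in EV, and 13 rose and 11 fell in WT. Among all tested genes 26.1% rose and 22.9% fell in EV and 26.3% rose and 22.7% fell in WT, so the WT counts were near those of all genes. The counts of the 2 lines were not tested against each other. The list's median was -0.12 in EV and 0.027 in WT, and the WT value turned to -0.034 with the authors' scaling factors. Under that scaling 2 rose and 24 fell in EV and 13 rose and 14 fell in WT. A positive difference was found for 94.1% of members, with a median of 0.18, and the difference was called for 1, MCM5.

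MCM5, a subunit of the replicative helicase (chromosome 22, 35400063 to 35425431, plus strand), was at 259, 269 and 267 CPM in untreated and 124, 122 and 127 CPM in treated EV, and at 230.4, 228 and 227 CPM in untreated and 142, 150.1 and 141 CPM in treated WT libraries. WT was the lower line before treatment and the higher line after it, without overlap. MCM5 fell by 1.09 in EV and by 0.66 in WT, a difference of 0.43 ± 0.077 (adjusted p = 0.0191, edgeR). The helicase subunit MCM6 fell by 0.76 and 0.35 (difference 0.41, adjusted p = 0.123). CCNE2, cyclin E2, had the largest difference of the list, 0.93 ± 0.20 (adjusted p = 0.0563), and LIG1, DNA ligase 1, the lowest, -0.053 (adjusted p = 0.916). With 12 libraries MCM6, MCM10, PCNA and CCNE2 joined MCM5, at 0.40, 0.27, 0.30 and 0.92.

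The mean log2 CPM of these 51 genes was 6.63, 6.65 and 6.62 in untreated EV replicates and 6.42, 6.49 and 6.48 in treated ones, and 6.596, 6.621 and 6.603 in untreated and 6.62, 6.65 and 6.63 in treated WT replicates. Treated EV libraries were the lowest, below the other 9, which lay between 6.596 and 6.649. Treated EV replicate 1, the library farthest from its group, was the lowest of all. The list's median difference was 0.16 without it.

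Of 49 tested G2 and mitosis genes, 2 rose and 24 fell in EV and 2 rose and 33 fell in WT, with medians of -0.20 and -0.32. Falls were found for 22.9% of all tested genes in EV and 22.7% in WT, and rises for 26.1% and 26.3%. The counts of the 2 lines were not tested against each other. Only 16.3% of members had a positive difference, and the median was -0.11. DLGAP5 (chromosome 14, 55148112 to 55191679, minus strand) was at 159, 161 and 159 CPM in untreated and 157, 153 and 163 CPM in treated EV, and at 151, 147 and 142 CPM in untreated and 114, 108 and 109.6 CPM in treated WT libraries. Treated WT libraries lay below the other 9. DLGAP5 fell by 0.41 in WT with -0.014 in EV (adjusted p = 0.859), and was the only member with a called difference (-0.39 ± 0.080, adjusted p = 0.0427, edgeR). KIF20A, a mitotic kinesin, fell by 0.45 and 0.81 (difference -0.37, adjusted p = 0.189, and 0.0159 with 12 libraries), the kinase NEK2 had -0.37 (adjusted p = 0.146), CCNB1, cyclin B1, fell by 0.36 and 0.62 (difference -0.26, adjusted p = 0.37), and CENPI was highest at 0.17.

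**Figure D4:**
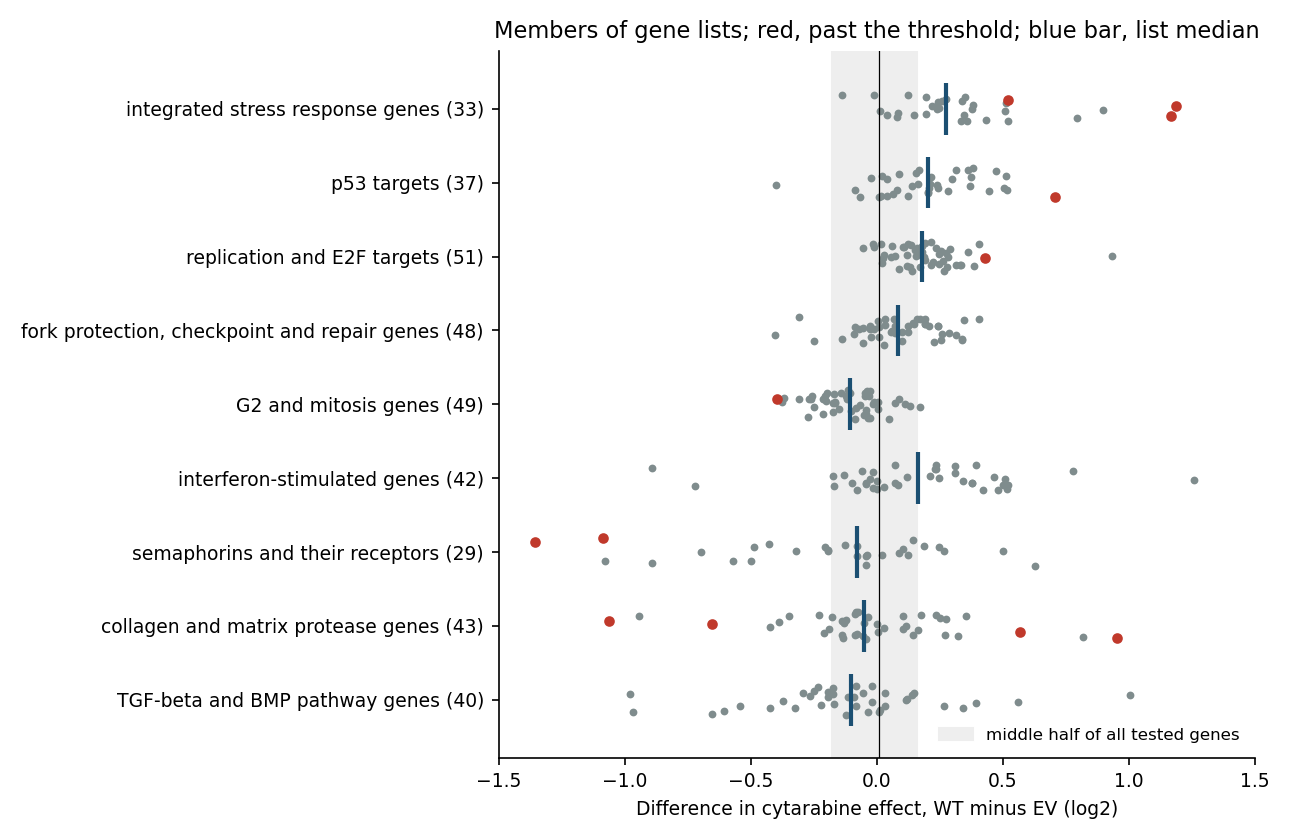
Difference in cytarabine effect (WT minus EV, log2, horizontal axis) for the tested members of 9 gene lists (number in parentheses), with members past the threshold in red, the list median as a blue bar and the interquartile range of all tested genes shaded. The medians of the integrated stress response, p53 and replication lists are 0.28, 0.21 and 0.18 and that of the G2 and mitosis list is -0.11, while 3 members lie outside the plotted range.

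Other lists held few called differences. None of 48 fork protection, checkpoint and repair genes (median 0.086), 42 interferon-stimulated genes (0.17), 23 genes of cytarabine uptake and metabolism (0.12) or 23 genes of the DNA methylation machinery (0.058) had one. Without adjustment 8, 9, 5 and 0 of them had p under 0.05 (edgeR), beside 1815 of all 18226 tested genes. DESeq2 called 0 in each list, limma voom 1 interferon-stimulated gene, and the fit of 12 libraries 1, 2, 0 and 1, the last being DNMT3A itself (-0.42, adjusted p = 0.0137, edgeR). Of the 42 interferon-stimulated genes, 28 rose and 1 fell in EV and 31 rose and 0 fell in WT, where 26.1% and 26.3% of all tested genes rose and 22.9% and 22.7% fell. DCK, which phosphorylates cytarabine, had effects of -0.10 in EV and 0.12 in WT (difference 0.22, adjusted p = 0.645, edgeR), the nucleoside transporter SLC29A1 fell by 0.52 and 0.44 (difference 0.083, adjusted p = 0.849), and CDA, which deaminates the drug, rose by 0.87 and 1.56 (difference 0.69, adjusted p = 0.38). Of the 52 called genes 15 belong to at least 1 of the 27 lists and 37 to none. The lists hold 882 entries, counting repeats and untested genes, beside 18226 tested genes. They were chosen with earlier results of these data known, so the count of 15 is a description only.

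The threshold separates genes with similar values. The last inside it were APOL1 and FKBP9 (adjusted p = 0.0477) and AL365181.2 (0.0499), and the first outside were HIST1H2BK (0.0532, difference -1.10), SLC9A3R1 (0.0552, difference 0.44) and HIST1H2AG (0.0552, difference 0.74). Of the 52, 12 passed in each of the 12 fits that left out 1 library: C1S, PRRG4, GDF15, CHAC1, DCLK1, ARC, CD82, AP001972.5, CYP24A1, AC097374.1, SEMA3A and CCDC144NL. Leaving out treated EV replicate 2 gave 53 calls, and leaving out any 1 of the other 11 libraries gave between 12 and 25. Without treated EV replicate 1, 18 genes were called, 16 of them among the 52.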

How the data were processed

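RNA-seq of 18 libraries of U2OS lines was used, with extraction by Direct-zol and libraries from a NEBNext Ultra kit per the labels' protocols. STAR 2.6.1d, CASAVA and the hg38 genome are named per the submitters' processing notes, while the counting tool and its use of strand are not given in the sources used here. The deposited values are estimated counts per gene, of which 70.9% are whole numbers. They were rounded before testing. A second table deposited by the authors holds normalized signal, which equals 1 plus a library factor times the count (largest relative deviation 7.33e-06). It served only to recover the authors' factors as an alternative scaling.

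Genes were filtered with filterByExpr (18226 of 25296 kept), scaled by TMM and fitted in edgeR 4.0.16 (R 4.3.3) with 1 coefficient per group over all 18 libraries, giving 12 residual degrees of freedom and a common biological coefficient of variation of 0.104. Contrasts were tested by quasi-likelihood F test with Benjamini-Hochberg adjustment over all tested genes at 0.05. The interaction test was also tried on simulated data, whose means and spread were taken from the fit of the real libraries. Each gene had the same spread in every group there, so unequal spread between groups was not simulated. The replicates are biological triplicates per the labels, and their counts differed by more than sampling noise within each group.

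Named genes were the 15 largest positive and 15 largest negative called differences whose mean log2 CPM reached 1, called genes in a list, reversed genes, DNMT3A, 6 fixed genes and up to 4 extreme members per list. Other named genes, including those called in the fit of 12 libraries, were chosen after their values were seen. The comparison, its members and the 27 gene lists were chosen with earlier results of these data known. Alternatives were a fit of 12 libraries, 3 other scalings, 2 other filters, DESeq2 1.42.0, limma 3.58.1 (voom), a minimum fold change, a replicate block, removal of processed pseudogenes and each library left out. The fit without both the mutant line and treated EV replicate 1 was added after the data were seen. Symbols that had turned into dates (26) were left as they stand.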

Additional observations from a re-analysis of the deposited data

Results flagged for a closer look

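All 52 genes with a different response are listed here because 2 lines answered the same treatment differently by a test of the difference itself (edgeR's quasi-likelihood test of the interaction, adjusted p under 0.05). Values are the WT minus EV difference in log2 fold change, between 3 libraries per group.

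Rises that were stronger in WT were those of C1S (1.99), ESM1 (1.58), TRIML2 (1.25), PRRG4 (1.23), GDF15 (1.19), DDR2 (0.95), DCLK1 (0.93), ARC (0.93), RINL (0.85), FGD6 (0.80), PLCL2 (0.78), APOL6 (0.77), CD82 (0.76), ARRB1 (0.76), TIGAR (0.71), APOL1 (0.67), MAOA (0.59) and FKBP9 (0.39). Falls that were stronger in WT were those of DLGAP5 (-0.39), TPM1 (-0.44), NR2F2 (-0.48), CITED2 (-0.50), H1F0 (-0.67), CCDC144NL-AS1 (-0.70), VGF (-0.72), AC097374.1 (-1.11), AC129926.2 (-1.17) and CCDC144NL (-1.47).

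Rises that were weaker in WT were those of LIMCH1 (-0.45), CRYAB (-0.55), AL365181.2 (-0.60), SLC2A3 (-0.60), COL11A1 (-0.65), CA11 (-0.67), TUBA1A (-0.73), SEMA3B (-1.09), PLAC1 (-1.21) and SEMA3A (-1.36), and falls that were weaker were those of ADAMTS6 (0.57) and MCM5 (0.43). Both lines passed with opposite signs for CHAC1 (1.17), PSAT1 (0.52) and CYP24A1 (-0.79). Fitted signs were opposite with 1 line past the threshold for AP001972.5 (1.44), PRKCE (0.67), COQ8A (0.62), CCNK (0.39), BTBD2 (-0.55), TXNIP (-0.83), PKIB (-0.92), AAMDC (-1.02) and COL3A1 (-1.06).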

How the results depend on the processing

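All 52 genes kept the sign of their difference under every alternative run, and all 52 also passed in the fit of 12 libraries, in DESeq2 and in limma voom. The number of genes with a different response, 52, was 278 with only EV and WT libraries, 385 when treated EV replicate 1 was left out as well, 138 with DESeq2, 235 with limma voom, 32 with the authors' factors (22 positive, 10 negative), 34 with no low-count filter (22 and 12), 15 with a minimum absolute log2 fold change of 1, and 12 to 53 with 1 library left out. Other scalings gave 47 (RLE, 28 positive and 19 negative) and 51 (upper quartile). With the replicate number as a block it was 47, of which 41 were among the 52. Same-numbered libraries deviated together weakly or not at all (12 pairs, r from -0.14 to 0.12). The highest values between untreated and treated libraries, 0.12 in EV and 0.075 in WT, were of same-numbered pairs. Whether the numbers pair the samples is therefore not settled.

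In the same order (12 libraries, also without treated EV replicate 1, DESeq2, limma voom, minimum fold change), reversed responses numbered 29, 34, 6, 24 and 0, those of opposite sign with 1 call 60, 91, 31, 53 and 4, stronger ones 129, 178, 70, 113 and 8, and weaker ones 60, 82, 31, 45 and 3. The authors' factors gave 18 stronger and 4 weaker, and no low-count filter gave 5 weaker and 5 of opposite sign. Leaving out 1 library gave 1 to 5 reversed, 1 to 12 of opposite sign, 8 to 27 stronger and 1 to 9 weaker.

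Genes that differed untreated numbered 3536 with 12 libraries, 4431 also without treated EV replicate 1, 4464 with limma voom, 469 with the minimum fold change and 1385 to 2238 with 1 library left out. After cytarabine they numbered 4749, 4927, 598 (minimum fold change) and 1776 to 2810, the lowest without treated WT replicate 2. The minimum fold change left 2213 genes changed in EV and 2296 in WT, and leaving out 1 library gave 7839 to 8800 and 7761 to 9195. Upper-quartile factors split the EV calls 5455 higher to 3403 lower, and the authors' factors 4161 to 5040 in EV and 4273 to 4848 in WT. The LIG1 difference, which did not pass, ran from -0.093 to 0.0067 with 1 library left out, the latter without untreated EV replicate 1. The cause of these shifts was not tested. Low counts limit the reach of the test, as genes removed by the count filter were not tested.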

Other observations

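Lists not described above held few or no called differences. Of 18 tested clustered histone genes, which have near-identical copies, 11 were higher in WT untreated and 12 after cytarabine, and 0 were lower. Of all 18226 tested genes, 783 were higher in WT untreated and 1351 after cytarabine. With cytarabine 1 of the 18 rose and 8 fell in EV, and 1 rose and 10 fell in WT. The list does not hold H1F0, whose WT minus EV value was -0.37 untreated and -1.04 after cytarabine on the log2 scale. None of the 18 had a called difference by edgeR, although DESeq2 and limma voom each called 3 (1 positive, 2 negative) and 4 had p under 0.05 without adjustment. Without adjustment 1815 of all 18226 tested genes had p under 0.05 (edgeR), the share to set beside this list and the TGF-beta, BMP and HOX genes. Of 40 genes of the TGF-beta and BMP pathway, 6 rose and 8 fell in EV and 7 rose and 17 fell in WT, with a median difference of -0.10. Of all tested genes, 26.1% rose and 22.9% fell in EV and 26.3% rose and 22.7% fell in WT. In this pathway edgeR called 0 differences, 10 genes had p under 0.05 without adjustment, DESeq2 called 1 and limma voom 2. The counts of the 2 lines were not tested against each other. HOX genes had a median difference of 0.13, with 75.8% of 33 members positive, 5 at p under 0.05 without adjustment and 0 called by edgeR, DESeq2 or limma voom.

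The line with mutant DNMT3A took no part in the comparison. Its fitted cytarabine effect lay nearer to that of EV than to that of WT for 39 of the 52 genes, 19 of the 26 with a positive and 20 of the 26 with a negative difference, against 49.8% of all tested genes. The mutant libraries entered the shared estimate of spread, and the count is a description with no test. The fitted effect in the mutant line was 0.37 for CHAC1, -0.12 for PSAT1 and 0.49 for CYP24A1, against -0.32, -0.30 and 0.45 in EV and 0.85, 0.22 and -0.34 in WT.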
